A study of Mus musculus with 12 samples.

Results

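The genes described are those of the proteasome, taken as every row of the count table whose symbol starts with Psma, Psmb, Psmc or Psmd followed by a digit, without the inducible subunits Psmb8, Psmb9 and Psmb10. The pattern found 37 of 23337 rows. It uses names only and no measured value. Of the 37 rows, 7 were genes of the alpha rings and 7 of the beta rings of the 20S core, 6 were ATPases and 14 were non-ATPase genes of the 19S regulatory particle, 2 were core subunits known from germ cells or the thymus, and 1, Psmc3ip, matched by its name although it encodes no subunit. RNA sequencing was done on NU1, a mouse urothelial cell line described by the labels as normal cells immortalized by passaging. Its 12 libraries formed 4 groups of 3, with 1 library of each group from each of the experiments numbered 5, 7 and 9. Proliferating cells carried a control hairpin (shNT, genotype labelled WT) or the hairpin sh4 against Stag2, a subunit of the cohesin ring. Quiescent cells carried the same hairpins, had been grown to confluence and then kept with 1 µM rosiglitazone, an agonist of PPAR gamma, and 0.5 µM erlotinib, an inhibitor of EGFR kinase. Their label gives day 7. Every group was cultured in medium with serum, epidermal growth factor and insulin. The knockdown rests on 1 hairpin, and confluence, both drugs and time in culture changed together between the proliferating and the quiescent cells, so their parts cannot be told apart. The labels do not say whether the experiments were separately derived cultures, so p-values measure the spread between these libraries.

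The proteasome is the large protease that degrades proteins tagged with ubiquitin. Its 20S core is a barrel of stacked rings, with outer alpha rings that gate the entrance and inner beta rings that hold the active sites, carried by Psmb6 (caspase-like), Psmb7 (trypsin-like) and Psmb5 (chymotrypsin-like). The 19S particle caps the barrel, binds ubiquitin chains, removes them and unfolds the substrate with its ring of ATPases. Subunit genes are widely expressed and are known to be raised together by the transcription factor Nfe2l1 when proteasome activity is impaired.

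Library totals ran from 14524429 to 21987539 counts, and the 37 rows took between 0.415% and 0.529% of them. Levels are given as CPM, a gene's counts per 1000000 counts of its library after TMM scaling. Stag2 stood at 133 ± 17.4 CPM (SD, n = 3) in proliferating control cells and 27.6 ± 4.96 in proliferating knockdown cells, a log2 fold change of -2.26 with an edgeR adjusted p of 0.00121. In quiescent cells it stood at 121 ± 11.3 CPM in controls and 12.1 ± 2.95 in knockdown cells, a log2 fold change of -3.32 with an edgeR adjusted p of 3.39e-05. Of 15 urothelial marker genes 12 passed the filter on low counts, with summed levels of 12300 to 17778 CPM in proliferating control, 14405 to 16604 in proliferating knockdown, 12346 to 19329 in quiescent control and 21446 to 23357 in quiescent knockdown libraries. Krt8 alone ran from 3493 to 9042 CPM over the libraries and Krt18 from 2607 to 6508, so the sums mostly reflect keratins. Gata3 ran from 26.5 to 118 CPM and Elf3 from 77.3 to 518. The uroplakin genes were low, with Upk1a at most 3.94 CPM, Upk1b 2.23, Upk2 1.45 and Upk3a 0.0453. Krt5 was at most 6.60 CPM. Trp63, a basal urothelial marker, was listed at 0 in every library. The 9 fibroblast and smooth muscle markers summed to at most 2.56 CPM, with Col1a2, Col3a1 and Lum at 0. The 5 immune markers summed to at most 9.42 CPM, with the defining markers Emr1 and Cd3e at 0, and the 3 endothelial markers to at most 0.239. All 7 proliferation markers fell with quiescence in both control and knockdown cells, with median log2 fold changes of -4.64 and -3.25.

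After the filter on low counts 35 of the 37 rows entered the tests among 12406 genes, namely the 34 genes of the constitutive particle and Psmc3ip. Psma8, the alpha subunit of testis proteasomes, had no count in any library. Psmb11, the beta subunit of the thymus, had between 0 and 5 counts in a library. Psmc3ip encodes a partner of DNA recombinases in meiotic recombination and does not belong to the proteasome, so counts below are given for the 35 rows and, where it matters, for the 34 subunit genes. Psmd5, Psmd9 and Psmd10 encode chaperones that help assemble the base of the 19S particle and are named with its non-ATPase subunits.

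The sequence just upstream of the start was read for the genes whose values carry most of what follows, to show which known promoter motifs lie there. Sequences are RefSeq promoter entries on GRCm38.p6, printed 5′ to 3′ on the gene's strand as the 150 bases before the RefSeq start, with matches to the searched motifs in capitals. Gene positions given elsewhere come from GENCODE, whose starts can differ. The stretches of Psmb5 and Psmd8 reach into the GENCODE gene, and that of Psmb6 stops short of it. Psmb6 was the subunit gene with the lowest fold change after Stag2 knockdown, Psmb5 is an active-site gene with the same motif, Psmd14 was the subunit gene with the lowest fold change in quiescence and Psmd8 the one with the highest. Psmb6 is read from chr11:70525207-70525356 on the plus strand, Psmb5 from chr14:54617996-54618145 on the minus strand, Psmd14 from chr2:61711544-61711693 on the plus strand, Psmd8 from chr7:29180674-29180823 on the minus strand, and Psmc3ip from chr11:101095436-101095585 on the minus strand.
Psmb6: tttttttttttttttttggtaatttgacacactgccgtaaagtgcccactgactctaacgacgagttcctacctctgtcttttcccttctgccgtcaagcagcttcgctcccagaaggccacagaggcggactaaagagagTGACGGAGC
Psmb5: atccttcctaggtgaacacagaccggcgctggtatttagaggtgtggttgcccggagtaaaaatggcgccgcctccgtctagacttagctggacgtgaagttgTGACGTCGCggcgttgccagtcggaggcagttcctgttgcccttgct
Psmd14: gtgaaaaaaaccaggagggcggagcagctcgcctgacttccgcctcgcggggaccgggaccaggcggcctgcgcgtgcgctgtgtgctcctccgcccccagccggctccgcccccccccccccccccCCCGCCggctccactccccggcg
Psmd8: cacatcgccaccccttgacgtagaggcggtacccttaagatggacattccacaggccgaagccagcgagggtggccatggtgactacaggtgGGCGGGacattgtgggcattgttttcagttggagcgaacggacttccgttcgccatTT
Psmc3ip: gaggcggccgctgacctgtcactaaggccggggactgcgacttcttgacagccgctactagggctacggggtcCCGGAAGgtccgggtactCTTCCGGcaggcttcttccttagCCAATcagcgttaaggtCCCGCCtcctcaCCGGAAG

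In Psmb6 and Psmb5 the capitals mark TGACNNNGC, the core of the antioxidant response element bound by the Nfe2l1 and Nfe2l2 factors. In Psmb6 this match ends at the last base before the RefSeq start. In Psmd14 and Psmd8 they mark the letters GGCGGG or the reverse CCCGCC, called the GC box here. The shifted letters GGGCGG and CCGCCC, which also occur in the Psmd14 stretch, were not searched and are not marked. The last capitals of Psmd8 begin a match to TTTGAA, the cell cycle homology region, or its reverse TTCAAA, which runs across the start. In Psmc3ip the capitals mark 3 copies of the ETS core CCGGAAG or its reverse, 1 GC box and 1 CCAAT. The 6 motifs were counted on both strands of windows of 300 bases, from 250 before to 50 after the start, for the 28 subunit genes found in the promoter table, without Psmb1, Psmb2, Psmb7, Psmc3, Psmd3 and Psmd7. The ETS core CCGGAAG was in 10 of the 28 windows (35.7%) and in 9.93% of the windows of 27025 gene symbols. The letters GGCGGG, without the shifted form GGGCGG, were in 22 windows (78.6%) against 37.9% of all. TGACNNNGC was in 5 windows (17.9%), those of Psmb5, Psmb6, Psmc6, Psmd12 and Psmd9, against 14.0% of all. CCAAT was in 11 windows (39.3%) against 41.1%, and TTTGAA in 3 (10.7%) against 20.2%. TTTNGCGC, the E2F site, was in 0 windows against 1.57% of all. These counts describe letters in a window and were not tested, and the motifs can overlap one another. The 27025 symbols were not limited to genes that passed the filter on low counts. The shares therefore do not separate proteasome genes from other expressed genes.

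Per length of exon, the subunit genes of proliferating control cells ran from 12.2 to 187 CPM per kilobase, a 15.3-fold range around a median of 86.1. Most of that range came from few genes: 28 of the 34 lay within 2-fold of the median. The 6 ATPases, which form 1 ring, spanned 1.68-fold on this scale, the alpha genes 2.20-fold, the beta genes 4.76-fold and the non-ATPase genes 10.7-fold. The 3 lowest were the assembly chaperones, Psmd10 at 25.9 ± 6.51 CPM per kilobase (SD, n = 3), Psmd5 at 15.3 ± 1.50 and Psmd9 at 12.2 ± 1.77. Next above them was the core gene Psmb1 at 39.2 ± 5.35, whose annotated exons sum to 3427 bases. The 3 highest were beta genes, Psmb6 at 187 ± 27.0, Psmb3 at 173 ± 34.6 and Psmb5 at 171 ± 28.0 CPM per kilobase, which did not differ beyond their SD. Psmd2, the scaffold of the 19S base that binds ubiquitin receptors, followed at 130 ± 4.67 and Psmd3, a subunit of the lid, at 129 ± 3.62, again within their SD. In quiescent knockdown cells Psmb6 took the fourth place, at 123 ± 8.26 CPM per kilobase, while Psmb5 stood first at 183 ± 36.1. These levels divide by all annotated exon bases, and reads can be shared with processed pseudogenes: 57.1% of the 50-base words of Psmb5, 55.8% of those of Psmb3 and 54.5% of those of Psma5 also occur in other annotated transcripts, against 2.67% for Psmb6.

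**Figure D1:**
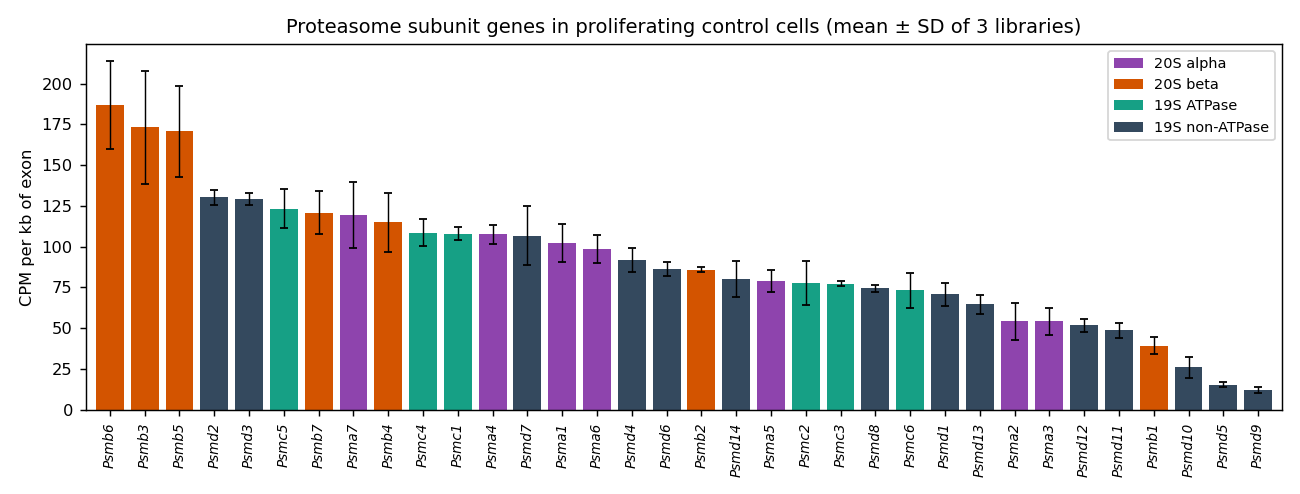
Levels of the 34 subunit genes in proliferating control cells, in CPM per kilobase of annotated exon, ordered by level and coloured by place in the particle. Bars are means and lines the SD of 3 libraries; 3 beta genes lead at 171 to 187 and the assembly chaperones Psmd10, Psmd5 and Psmd9 close the order at 25.9 to 12.2.

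Quiescence in control cells was compared first. Most proteasome genes stood slightly lower in quiescence: 33 of the 35 rows, and 32 of the 34 subunit genes, had a negative log2 fold change, where 49.6% of all tested genes did. The median log2 fold change was -0.25 for the 35 rows, -0.24 for the subunit genes and 0.0047 for all tested genes. Single experiments gave medians of -0.18, -0.25 and -0.29 in experiments 5, 7 and 9. In all 3 experiments 27 rows were lower and 1, Psmd8, was higher, where 31.5% of all genes were lower in all 3. The 3 quiescent control libraries lay below the 3 proliferating ones for 17 rows, against 18.5% of all genes, and above them for 1 row, again Psmd8, against 17.1% of all genes. In bulk RNA, fewer cells of a kind and less RNA per cell cannot be told apart, and a level here is a share of each library.

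Few of these small differences passed the test gene by gene. With edgeR, 3 of the 35 rows fell and 0 rose, where 11.7% of all tested genes fell and 8.33% rose, so the share that fell was no larger than that of all genes. The 3 were Psmc3ip, Psmd14 and Psmd3, so 2 of 34 subunit genes. At an unadjusted p below 0.05, 15 rows were lower and 1 higher, against 18.8% and 16% of all genes. The DESeq2 test called 8 lower and 1 higher, against 14.5% and 11.5%. The SE of the 35 log2 fold changes had a median of 0.138, against a median fold change of -0.25, and a row that was not called is not shown to be unchanged. With the experiment as a block, 8 rows fell (Psmc3ip, Psmd14, Psma3, Psmb7, Psmd3, Psmd13, Psmc3 and Psmd2), against 18.5% of all genes in that fit. Leaving out 1 library at a time moved the count without the block from 1 to 6.

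**Figure D2:**
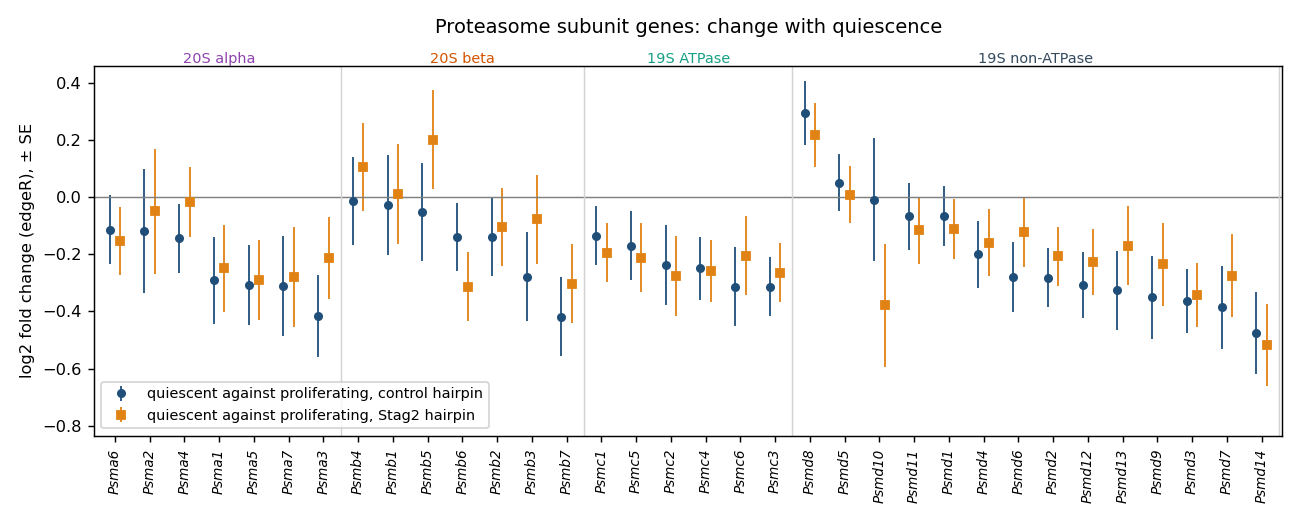
Log2 fold change of each subunit gene between quiescent and proliferating cells, with the SE of the edgeR fit, for control cells (circles) and Stag2 knockdown cells (squares), grouped by place in the particle. Most points lie between 0 and -0.5; Psmd14 is lowest and Psmd8 highest in both.

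By role, the 7 alpha genes were lower, with a median log2 fold change of -0.29 and a range from -0.42 for Psma3 to -0.11 for Psma6. The 7 beta genes were lower by less, with a median of -0.14, and differed among themselves: Psmb7 stood at -0.42 while Psmb1, Psmb4 and Psmb5 lay between -0.05 and -0.01. All 6 ATPase genes lay in a narrow band from -0.31 to -0.14 with a median of -0.24. Of the 14 non-ATPase genes 12 were lower, with a median of -0.28, and the others were Psmd5 at 0.05 and Psmd8 at 0.29.

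Psmd14 encodes the metalloprotease of the lid that cuts ubiquitin chains off the substrate, and it lies at chr2:61711694-61800376 (GRCm38, 12 exon blocks). In proliferating control cells it stood at 107, 122 and 141 CPM in experiments 5, 7 and 9, in proliferating knockdown cells at 108, 115 and 131, in quiescent control cells at 87.6, 79.5 and 99.1, and in quiescent knockdown cells at 94.6, 75.5 and 76.7. All 6 quiescent libraries lay below all 6 proliferating ones. The share of all genes separated in this way was not counted, here or for the genes below. Psmd14 fell in quiescent control cells by 0.48 on the log2 scale (SE 0.143, edgeR adjusted p = 0.0378) and in quiescent knockdown cells by 0.52 (SE 0.143, edgeR adjusted p = 0.0285). With 1 library left out, the call in control cells held in 5 of 12 fits and that in knockdown cells in 8 of 12, with edgeR adjusted p up to 0.134 and 0.109. The first was lost without a control library of either state from experiment 7, proliferating control 9, quiescent control 5, either knockdown library of experiment 7 or quiescent knockdown 9, and the second without either knockdown library of experiments 7 or 9.

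Psmd3, another subunit of the lid, stood at 270, 276 and 285 CPM in proliferating control, 267, 286 and 274 in proliferating knockdown, 220, 197 and 230 in quiescent control and 245, 207 and 200 in quiescent knockdown libraries. Here too the quiescent libraries all lay below the proliferating ones. The fall in control cells was 0.36 on the log2 scale (SE 0.111, edgeR adjusted p = 0.0406). It held in 2 of 12 fits with 1 library left out, those without proliferating knockdown or quiescent knockdown of experiment 5, and the edgeR adjusted p reached 0.141 in the others. In knockdown cells the log2 fold change was -0.34, with an edgeR adjusted p of 0.0526 that became 0.0325 with the experiment as a block.

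Psmb7, the trypsin-like active site, stood at 130, 133 and 158 CPM in proliferating control, 124, 143 and 148 in proliferating knockdown, 97.1, 102 and 116 in quiescent control and 131, 98.2 and 108 in quiescent knockdown libraries. Quiescent control libraries lay below both proliferating groups, while the quiescent knockdown library of experiment 5 lay among the proliferating ones. The log2 fold change in control cells was -0.42 (SE 0.138), and the edgeR adjusted p was 0.0524 without and 0.0275 with the block. Exons of Psmb7 share 34.9% of their bases with Nek6 on the opposite strand, and how strand entered the counting is not given in the sources used here.

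Psmb5, the chymotrypsin-like site, did not follow Psmb7. It stood at 129, 152 and 180 CPM in proliferating control, 119, 163 and 148 in proliferating knockdown, 144, 140 and 160 in quiescent control and 202, 144 and 149 in quiescent knockdown libraries. These 4 groups overlapped, and the highest library was quiescent knockdown of experiment 5. The log2 fold change with quiescence in control cells was -0.05 (SE 0.172), with an edgeR adjusted p of 0.863.

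Psmd8, a lid subunit at chr7:29174188-29180701, ran against the others. It stood at 159, 164 and 168 CPM in proliferating control, 164, 186 and 164 in proliferating knockdown, 178, 199 and 226 in quiescent control and 202, 190 and 205 in quiescent knockdown libraries. Each quiescent library lay above the proliferating libraries of its own hairpin. The log2 fold change in control cells was 0.29 (SE 0.112), with an edgeR adjusted p of 0.0861, so it was not called, and with the block the edgeR adjusted p was 0.0525. DESeq2 gave an adjusted p of 0.0406 for it. Scaling to library totals alone gave 0.35 with an edgeR adjusted p of 0.0459. Per kilobase of exon Psmd8 moved from place 23 among the subunit genes in proliferating control cells to place 12 in quiescent control cells, and Psmd14 from place 19 to 25.

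Psmc3ip had by far the largest fold change of the 35 rows. It stood at 10.9, 11.3 and 15.6 CPM in proliferating control, 9.27, 12.7 and 16.2 in proliferating knockdown, 4.14, 5.38 and 4.47 in quiescent control and 6.44, 7.34 and 5.21 in quiescent knockdown libraries. The quiescent libraries all lay below the proliferating ones. It fell by 1.43 on the log2 scale in control cells (SE 0.253, edgeR adjusted p = 0.00295) and by 1.01 in knockdown cells (SE 0.249, edgeR adjusted p = 0.0175). The first call held in 12 of 12 fits with 1 library left out. The second held in 9 of 12 and was lost without quiescent knockdown 5 or either knockdown library of experiment 9, with an edgeR adjusted p up to 0.0764. Its exons share 29.8% of their bases with Mlx on the opposite strand.

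**Figure D3:**
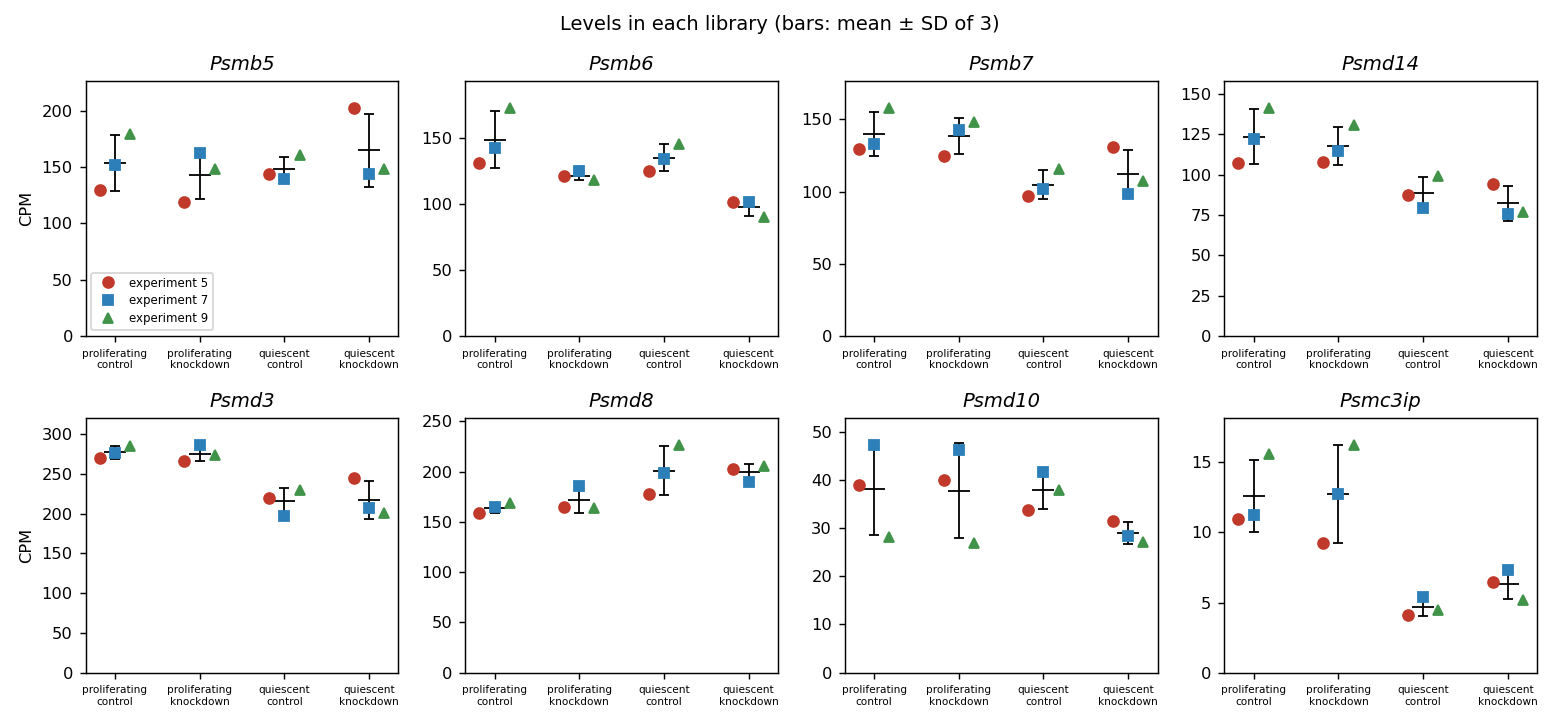
CPM of 8 genes in each of the 12 libraries, with the mean and SD of 3 libraries per group and the experiment shown by symbol. Psmd14, Psmd3 and Psmc3ip are lower in all quiescent than in all proliferating libraries, Psmd8 is higher within each hairpin, and Psmb6 is lowest in quiescent knockdown libraries at 90.2 to 102.

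In knockdown cells the same comparison of quiescent with proliferating cultures gave 30 of 35 rows with a negative log2 fold change, where 49.5% of all tested genes had one, and a median of -0.21 against 0.0045 for all genes. With edgeR 2 rows fell and 0 rose, Psmc3ip and Psmd14, against 10.8% of all genes that fell. With the block 3 rows fell, adding Psmd3, against 17.2% of all genes. At an unadjusted p below 0.05 there were 7 rows, against 33% of all genes in either direction, and DESeq2 called 3, against 24.1%. The quiescent libraries lay below the proliferating ones for 9 rows, against 19.1% of all genes, and above them for 1, Psmd8, against 18.1%. In all 3 experiments 9 rows were lower, against 27.3% of all genes. All 6 ATPase genes and all 7 alpha genes had negative fold changes, with medians of -0.24 and -0.21, and 4 of 7 beta genes did, with a median of -0.08.

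Experiment 5 differed from the other experiments here. The experiments gave member medians of 0.06, -0.35 and -0.33 in experiments 5, 7 and 9. Set against the proliferating control mean, the median of the 34 subunit genes was -0.04 on the log2 scale in the quiescent knockdown library of experiment 5, and -0.27 in those of both other experiments. In proliferating knockdown libraries, the other side of the comparison, it was -0.14 in experiment 5, 0.07 in experiment 7 and 0.03 in experiment 9. The beta genes of the quiescent knockdown library of experiment 5 stood at 0.15, where the other quiescent knockdown libraries had -0.22 and -0.18. The median over all tested genes stayed within 0.016 of 0 in every library, which TMM scaling largely sets in advance. The quiescent knockdown library of experiment 5 also had the most counts, 21987539 in all. Whether depth has a part in the difference was not tested.

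Without the quiescent knockdown library of experiment 5 and with the experiment as a block, 20 of 35 rows fell in quiescent knockdown cells, where 18.6% of 12618 genes fell. They were 4 alpha genes, 2 beta genes, all 6 ATPase genes, 7 non-ATPase genes and Psmc3ip. Among them Psmd14 fell by 0.68 (SE 0.108, edgeR adjusted p = 0.00168), Psmb7 by 0.49 (SE 0.0904, edgeR adjusted p = 0.00339) and Psma7 by 0.45 (SE 0.0932, edgeR adjusted p = 0.00601). In the same fit 18 rows fell and 1, Psmd8, rose in quiescent control cells, where 21.2% of genes fell and 19.5% rose. Without the block, leaving this library out gave 3 rows that fell in knockdown cells, against 6.51% of all genes, and 5 in control cells, against 10.7%. The share of proteasome genes called therefore depended on the block and on this library together, and this setting was chosen after the values of the library had been seen. Without the proliferating knockdown library of experiment 5, 2 rows fell in knockdown cells without the block, against 9.76% of all genes, and 2 with it, against 12.9%. Leaving out 1 library at a time with the block gave 1 to 20 called rows in knockdown cells and 1 to 19 in control cells.

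**Figure D4:**
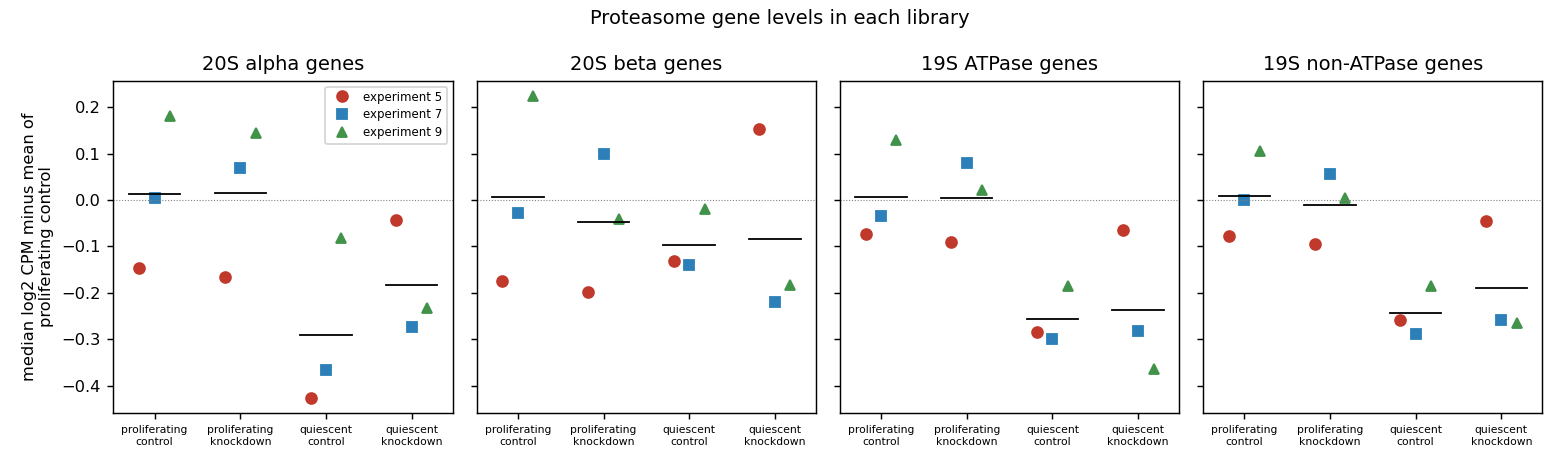
Median log2 CPM of the genes of each role in every library, minus the mean of proliferating control libraries, with the mean of each group as a bar. Quiescent libraries lie below 0 except beta genes of quiescent knockdown experiment 5 at 0.15; proliferating groups overlap.

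Stag2 knockdown in proliferating cells gave no called proteasome gene. Of the 35 rows 18 had a negative log2 fold change, where 50.5% of all tested genes did, and the median was -0.00075, with fold changes between -0.29 and 0.09. With edgeR 0 rows were called, with and without the block, and 0.0242% of all genes were. At an unadjusted p below 0.05 there was 1 row, Psmb6, against 1.84% of all genes, and DESeq2 called 0, against 0.0967%. The furthest from 0 were Psmb6 at -0.29 and Psmd7, the partner of Psmd14 in the lid, at -0.24 below 0, and the alpha gene Psma2 and the lid gene Psmd11 at 0.09 and 0.08 above 0. Their SE ran from 0.117 to 0.218.

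In quiescent cells the knockdown again gave no called row. Of the 35 rows 11 were lower, where 47.5% of all genes were, and the median log2 fold change was 0.04 against 0.02 for all genes. With edgeR 0 rows were called where 0.435% of all genes were, and 0 with the block where 3.55% of all genes were. At an unadjusted p below 0.05 there was 1 row, Psmb6, against 12% of all genes. DESeq2 called that row alone among the 35, against 3.14% of all genes. Knockdown libraries lay below control libraries for 3 rows, Psmb6, Psmd5 and Psmd10, against 8.85% of all genes, and above them for 0 rows, against 10.2% of all genes. Experiments 5, 7 and 9 gave medians of 0.24, 0.01 and -0.15. Without the quiescent knockdown library of experiment 5 the median was -0.03, with 22 of 35 rows lower, and -0.09 with 27 lower when the block was added, so the direction of this median rested on that library.

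Psmb6, the caspase-like active site of the core at chr11:70525367-70527858, had the most negative log2 fold change of the 35 rows in both knockdown comparisons. In proliferating cells it stood at 131, 143 and 173 CPM in control and at 121, 125 and 119 in knockdown libraries of experiments 5, 7 and 9. In quiescent cells it stood at 125, 134 and 146 CPM in control and at 101, 102 and 90.2 in knockdown libraries. In both states every knockdown library lay below every control library, as for 2.65% of all genes in proliferating cells. Within experiments 5, 7 and 9 the knockdown level was 92.6%, 87.3% and 68.6% of the control level in proliferating cells, and 80.8%, 75.9% and 61.8% in quiescent cells. Experiment 9 had the lowest percentage in both states.

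The log2 fold change of Psmb6 was -0.29 (SE 0.120) in proliferating cells, with an edgeR adjusted p of 0.9998. In quiescent cells it was -0.47 (SE 0.120), and the adjusted p was 0.128 by edgeR, 0.0549 by edgeR with the block and 0.0147 by DESeq2. Over the other settings without the block the edgeR adjusted p in quiescent cells ran from 0.0905 to 0.440. With the block it fell to 0.0331 when the proliferating control library of experiment 9 was left out, the only 1 of 12 such settings past the threshold. The difference of the effect between the states was -0.17 (SE 0.169, unadjusted p = 0.324 and edgeR adjusted p = 0.9997).

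Psmb6 was also set against the other core genes inside each library, a ratio that no scaling between libraries can change. As a percentage of the median of the other 13 core genes, its CPM was 112, 108 and 110% in proliferating control, 103, 87.6 and 83.2% in proliferating knockdown, 127, 121 and 117% in quiescent control and 74.3, 89.3 and 76.6% in quiescent knockdown libraries. The means were 110 ± 2.15% (SD, n = 3), 91.3 ± 10.5%, 122 ± 5.32% and 80.1 ± 8.06% in that order. Every knockdown library lay below every control library, that of experiment 5 included. The percentage is on the CPM scale, so its size rests on gene lengths as well, which are the same in every library. It was chosen after the values of Psmb6 had been seen and was not tested. For the other active sites the log2 fold change with knockdown in quiescent cells was 0.15 (SE 0.172) for Psmb5 and 0.10 (SE 0.137) for Psmb7. In experiments 5, 7 and 9 the knockdown level was 140, 103 and 92.6% of control for Psmb5. For Psmb7 it was 135, 96.7 and 92.8%. Both log2 fold changes went below 0 in some fits with 1 library left out, to -0.11 and -0.088.

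Psmd10, an assembly chaperone also known as gankyrin, varied with the experiment in proliferating cells, at 38.8, 47.2 and 28.1 CPM in control and 40.0, 46.2 and 26.9 in knockdown libraries. In quiescent cells it stood at 33.8, 41.7 and 37.9 CPM in control and 31.6, 28.4 and 27.0 in knockdown libraries, which did not overlap. The log2 fold change there was -0.38 (SE 0.216), with an edgeR adjusted p of 0.539. At the other end Psmc3ip stood at 0.44 (SE 0.252, edgeR adjusted p = 0.546) and the lid gene Psmd13 at 0.23 (SE 0.138, edgeR adjusted p = 0.575).

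**Figure D5:**
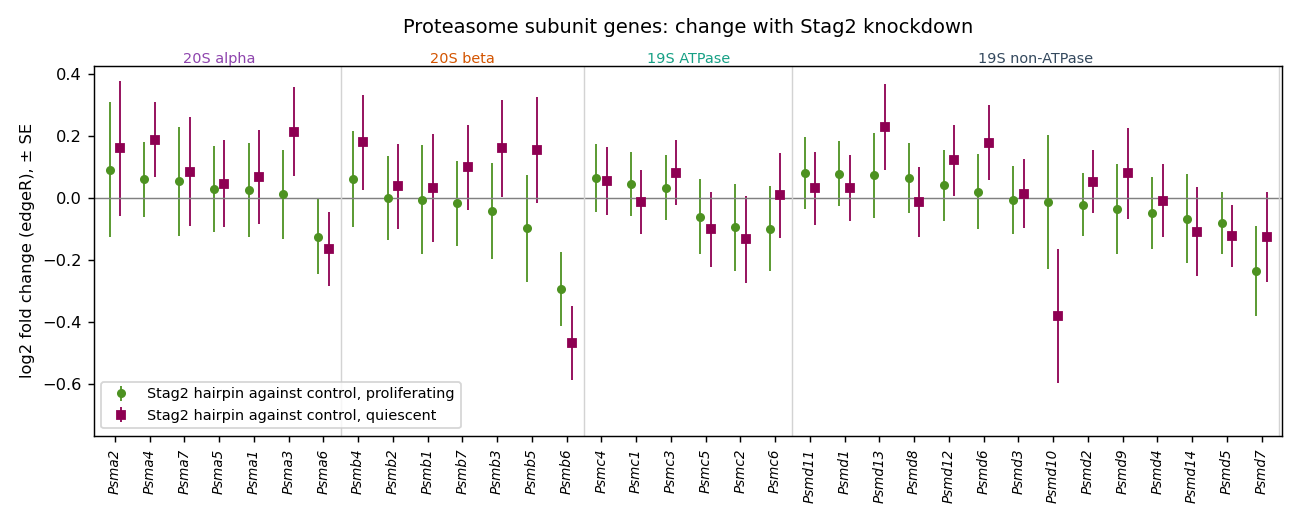
Log2 fold change of each subunit gene between Stag2 hairpin and control hairpin, with the SE of the edgeR fit, in proliferating (circles) and quiescent cells (squares). Psmb6 is lowest in both states, at -0.29 and -0.47, and most other genes lie within 0.2 of 0.

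Whether the effect of quiescence differed between knockdown and control cells was tested by an interaction term. No row was called, and the share over all genes was 0%, so this test separated no gene. At an unadjusted p below 0.05 there were 0 of the 35 rows and 219 of all genes (1.77%), and DESeq2 called 0 of the 35 and 0.0484% of all genes. The median over the 35 rows was 0.04, and the furthest values were Psmd10 at -0.37 and Psmc3ip at 0.42, with SE of 0.305 and 0.351. The quiescence and knockdown comparisons share libraries with each other, so their fold changes are given side by side and were not correlated.

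Genes that work with the proteasome were taken from lists by function. The 3 inducible subunits, which replace the active sites in immune proteasomes, had 0 of 3 genes called in any comparison with edgeR. Psmb8 had means of 1.10, 1.76, 1.68 and 5.04 CPM in proliferating control, proliferating knockdown, quiescent control and quiescent knockdown cells. With the block Psmb8 rose in quiescent knockdown cells by 1.21 on the log2 scale (edgeR adjusted p = 0.0432), with 2.86, 1.13 and 11.1 CPM in experiments 5, 7 and 9, so the mean rested on experiment 9. Of the 5 genes of activators and the inhibitor, the 5 assembly chaperones outside the Psmd names and the other 19S subunits Adrm1 and Shfm1, 0 were called. Over the comparisons the share of all genes called ran from 0% for the interaction to 11.7% lower and 8.33% higher for quiescence in control cells. With the block 18.5% of all genes fell in quiescent control cells. In that fit Psme3, the nuclear activator, fell by 0.34 (edgeR adjusted p = 0.0328) and the chaperone Psmg3 by 0.56 (edgeR adjusted p = 0.0377).

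Of 7 proteins that associate with the particle, 2 fell and 1 rose in quiescent control cells, where 11.7% of all genes fell and 8.33% rose. Zfand5, which activates the 26S proteasome in atrophying muscle, rose by 0.78 on the log2 scale (SE 0.168, edgeR adjusted p = 0.00845). The deubiquitinases Uchl5 and Usp14, which trim chains on the 19S particle, fell by 0.75 (SE 0.182, edgeR adjusted p = 0.0152) and 0.32 (SE 0.101, edgeR adjusted p = 0.0481). In quiescent knockdown cells 0 of the 7 were called, and Usp14 fell by 0.30 with the block (edgeR adjusted p = 0.0356).

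Among 4 regulators of proteasome genes, edgeR called 1 higher with quiescence in both backgrounds, against 8.33% of all genes in control and 7.59% in knockdown cells. This gene was Nfe2l1. Whether it acted on the subunit genes was not tested. Nfe2l1 stood at 406, 426 and 481 CPM in proliferating control, 384, 395 and 449 in proliferating knockdown, 672, 636 and 531 in quiescent control and 739, 631 and 704 in quiescent knockdown libraries. All quiescent libraries lay above all proliferating ones. The rise was 0.49 on the log2 scale in control cells (SE 0.132, edgeR adjusted p = 0.0251) and 0.76 in knockdown cells (SE 0.133, edgeR adjusted p = 0.00321). Nfe2l2, its relative in oxidative stress, was lower after knockdown in quiescent cells, at 329, 281 and 342 CPM in control and 207, 226 and 202 in knockdown libraries, which did not overlap. Its log2 fold change was -0.58 and the edgeR adjusted p was 0.112 without and 0.0447 with the block. In quiescent against proliferating knockdown cells its log2 fold change was -0.40, with an edgeR adjusted p of 0.0775 without and 0.0454 with the block.

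Of 6 genes of shuttle receptors and the unfoldase, 2 fell in quiescent knockdown cells, against 10.8% of all genes, the shuttles Ubqln2 by 0.53 (SE 0.154, edgeR adjusted p = 0.0362) and Ubqln4 by 0.41 (SE 0.121, edgeR adjusted p = 0.0375). In the other comparisons 0 of these 6 genes were called without the block. With the block Ubqln2 fell by 0.33 (edgeR adjusted p = 0.0264) and Rad23b, another shuttle, by 0.30 (edgeR adjusted p = 0.0462) in quiescent control cells, and Ubqln4 fell by 0.40 (edgeR adjusted p = 0.0422) after knockdown in quiescent cells.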

How the data were processed

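RNA of 12 libraries was sequenced from polyadenylated RNA with a stranded kit after ERCC spike-in RNA had been added, per the labels' protocols. Raw counts per gene symbol were deposited by the authors for every library. The submitters' processing notes name Bowtie, TopHat, HTSeq, DESeq2 and mm10. Their settings, the gene annotation and whether counting used strand are not given in the sources used here. The table held 0 spike-in rows, so levels are shares of each library.

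Genes were kept with filterByExpr at a minimum count of 10. Counts were scaled by TMM and tested with edgeR 4.0.16 (glmQLFit and glmQLFTest, R 4.3.3) over all 12 libraries with 4 group means, with p-values adjusted by Benjamini-Hochberg over all 12406 genes and a threshold of 0.05. Alternatives were the experiment as a block, DESeq2 1.42.0, other scalings and filters, fits on the libraries of 1 comparison, and leaving out each library. The labels give each experiment its own batch. Deviations from the group means correlated between libraries of the same experiment at r = 0.526 on average (0.225 to 0.789, 18 pairs). The numbers were therefore taken to pair libraries. Between different experiments the mean was -0.259 (36 pairs), which follows from the first value because deviations from a mean of 3 libraries sum to 0. The main fit had no term for the experiment, so its p-values do not use this pairing. The pairing enters only in the fits with the block. The test was checked on simulated data. Replicates differed by more than sampling noise, with chi-square per degree of freedom from 29.7 to 81.5. Floors and intervals from counts were not used.

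Named genes were Stag2, the 3 active-site genes, Psmc3ip, up to 4 called rows in each direction per comparison or else the 2 furthest each way, and called genes of the related lists. The members and lists were chosen with earlier results of these data known. Psmd8 was outside this rule without the block and was described after its values were seen, as were Nfe2l2, Psme3, Psmg3, Psmb8 and Rad23b. Exon lengths, positions and shared 50-base words come from GENCODE M21 (GRCm38), and promoters from RefSeq, in which 28 of 34 subunit genes were found. Some genes of the marker and related lists are not reported here.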

Additional observations from a re-analysis of the deposited data

How the results depend on the processing

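The count of called proteasome genes moved with the processing, and so did the share of all genes called. The median of the proteasome genes in quiescence stayed below 0 in every setting run. Their median after knockdown did not keep its sign. With quiescence in control cells, 3 rows were called, 8 with the experiment as a block, 9 by DESeq2 and 1 in a fit on the libraries of that comparison alone. Of all genes 11.7%, 18.5%, 14.5% and 8.23% fell in these fits, in that order. Leaving out 1 library, with or without the block, gave 1 to 19 called rows and medians from -0.31 to -0.15. The share of all genes that fell ran from 6.99% to 21.2% there. In knockdown cells leaving out 1 library gave 0 to 20 called rows and medians from -0.34 to -0.11, with 5.82% to 18.6% of all genes falling. With all libraries 2 rows were called, and 1 when Psmc3ip was not counted. For knockdown in quiescent cells leaving out 1 library gave 0 to 1 called rows and medians from -0.088 to 0.11. Of all genes 0.0319% to 2.57% fell in those fits. DESeq2 gave 1 called row there, against 3.14% of all genes. Medians ran from -0.071 to 0.055 for knockdown in proliferating cells and from -0.083 to 0.13 for the interaction. The calls of named proteasome and related genes that the block changed are given in the text, and it changed no other call of those genes. Cell type markers were described by level only and are outside this statement.

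Small uncalled fold changes changed sign, and the cause was not tested. Scaling to library totals gave 0.020 for Psmb7 after knockdown in proliferating cells and 0.021 for Psmd8 after knockdown in quiescent cells. The rest changed sign when 1 library was left out, with or without the block. For knockdown in proliferating cells Psmb5 ran from -0.25 to 0.031, Psmb7 from -0.090 to 0.074, Psmc3ip from -0.20 to 0.20, Psma2 from -0.089 to 0.27, Psmd11 from -0.0042 to 0.14 and Psmd8 from -0.011 to 0.14. For knockdown in quiescent cells Psmb5 ran from -0.11 to 0.30, Psmb7 from -0.088 to 0.20 and Psmd8 from -0.10 to 0.080. With quiescence Psmb5 ran from -0.17 to 0.074 in control and from -0.054 to 0.36 in knockdown cells. For the interaction Psmb5 ran from -0.013 to 0.41, Psmb7 from -0.071 to 0.21 and Psmd8 from -0.16 to 0.018.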
